A study of Mus musculus with 3 samples.

Results

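The ubiquitin-editing machinery built around A20 and CYLD was described here through 9 genes, taken by symbol from 55536 annotated genes. They were Tnfaip3, which encodes A20, the genes of its binding partners Tnip1, Tnip2, Tnip3 and Tax1bp1, the ligase genes Itch and Rnf11, and the deubiquitinase genes Cyld and Otulin. All 9 were among the 9123 protein-coding genes with a mean of at least 1 TPM (length-scaled transcript abundance). The RNA came from the cytosolic fraction of primary macrophages that had been grown from bone marrow of C57BL/6J mice and given lipid A at 100 ng/ml for 60 min. Lipid A, the membrane anchor of bacterial endotoxin, is the ligand of Toll-like receptor 4. The 3 libraries of ribosomal RNA-depleted total RNA, replicates 1, 2 and 3, formed 1 group, and age and sex were not collected. Neither unstimulated cells nor a nuclear fraction were analysed here, so no induction was measured. In a bulk sample, fewer cells of a type and less RNA per cell cannot be told apart.

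Receptors of the TNF and Toll-like families pass their signal on through chains of ubiquitin, which ligases build on adaptors and kinases and which bring the TAK1 and IKK kinases together. A20 and CYLD take such chains apart or replace them, and OTULIN cleaves the linear chains that the ligase complex LUBAC makes. The ABIN proteins encoded by the Tnip genes and TAX1BP1 are partners of A20, and members of this group also bind ubiquitin. ITCH and RNF11 work with A20 as ligases. A20 is a classical feedback inhibitor in macrophages, its gene being a target of the NF-kB factors that it restrains.

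Expected counts summed to 64110863 in replicate 1, 72057046 in replicate 2 and 69345880 in replicate 3. All 8 macrophage markers exceeded 1 TPM, between 21.7 and 5032 TPM, and so did 2 of 5 neutrophil markers, S100a8 and S100a9, at no more than 15.9 TPM. No marker of T, B, dendritic, erythroid, mast or stromal and endothelial cells reached 1 TPM, and the erythroid gene Hbb-bs had 0 counts in every library. Replicate 1 stood apart on the TPM scale. The median of the 9123 genes, called the median gene below, was 9.08 TPM in replicate 1 and 5.76 and 6.86 TPM in replicates 2 and 3. For this reason levels are also given relative to the median gene of the same library.

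Promoter windows of RefSeq (GRCm38.p6), from 250 bases before to 50 bases after a start site, were found for 7 of the 9 genes and not for Itch and Rnf11. The windows of Tnfaip3, Tnip1 and Tnip3 are printed because they belong to A20 and the ABIN partners and each held, before its start site, the kB consensus, the binding sequence of NF-kB dimers, which was searched on both strands. Capitals mark its matches.
Tnfaip3 promoter, chr10:19015361-19015660, minus strand: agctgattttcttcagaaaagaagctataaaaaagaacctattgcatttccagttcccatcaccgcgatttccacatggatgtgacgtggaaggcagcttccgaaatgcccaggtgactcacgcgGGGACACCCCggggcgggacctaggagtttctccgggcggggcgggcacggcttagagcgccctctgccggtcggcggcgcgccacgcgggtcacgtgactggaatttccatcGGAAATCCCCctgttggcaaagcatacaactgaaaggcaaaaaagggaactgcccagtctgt
Tnip1 promoter, chr11:54962891-54963190, minus strand: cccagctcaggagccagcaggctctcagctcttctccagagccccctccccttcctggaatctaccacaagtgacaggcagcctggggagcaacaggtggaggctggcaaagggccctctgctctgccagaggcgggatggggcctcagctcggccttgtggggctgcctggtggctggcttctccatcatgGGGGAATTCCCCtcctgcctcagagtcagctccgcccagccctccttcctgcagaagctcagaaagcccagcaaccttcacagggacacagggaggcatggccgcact
Tnip3 promoter, chr6:65590148-65590447, plus strand: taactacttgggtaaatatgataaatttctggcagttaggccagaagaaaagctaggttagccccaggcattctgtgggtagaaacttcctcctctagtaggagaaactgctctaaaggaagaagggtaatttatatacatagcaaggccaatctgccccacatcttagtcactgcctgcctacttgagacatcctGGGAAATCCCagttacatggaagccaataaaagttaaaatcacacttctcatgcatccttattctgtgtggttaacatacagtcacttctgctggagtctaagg

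In the Tnfaip3 window the matches began 125 and 12 bases before the start site. The first reads as the consensus on both strands. In the Tnip1 window overlapping matches formed a single run of capitals from 58 bases before the start, and the Tnip3 match began 54 bases before it. Cyld had a match 155 bases before its start, and the downstream of the Tax1bp1 windows had one 34 bases after its start. The windows of Otulin and Tnip2, the second window of Tnfaip3 and the upstream window of Tax1bp1 held no match. Matches were thus present in 5 of 9 windows, from 5 of 7 genes, while 8.46% of all 32851 windows of the same length and 10.5% of the 9348 windows of tested genes held one. A match describes these letters only, and no binding was measured.

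Tnfaip3 (ENSMUSG00000019850.11, chromosome 10 at 19000910 to 19015657 of GRCm38, minus strand) was by far the most abundant member. Its TPM was 547 in replicate 1, 350 in replicate 2 and 343 in replicate 3, resting on 201572, 214490 and 180993 expected counts. Within each library it exceeded every other member by 7.53-fold or more. Relative to the median gene its level was 5.90, 5.90 and 5.62 on the log2(TPM + 0.1) scale, a mean of 5.81 ± 0.10 (moderated SE, n = 3), or 56.0-fold. This placed it above the 2-fold band around the median gene (limma treat, Benjamini-Hochberg adjusted p = 2.1e-07) and at rank 79 of 9123 by mean TPM. Of the TPM of all 9 members Tnfaip3 took 67.7, 70.3 and 67.4%. Here and below, a moderated SE comes from the limma fit, which shrinks variances towards a trend over all tested genes.

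The genes whose level relative to the median gene lay nearest to that of Tnfaip3 in all 3 libraries were Ccl7, Rpl13a and Sqstm1. Ccl7, which encodes a monocyte-attracting chemokine, stood at 555, 354 and 339 TPM and differed by at most 0.021 on the log2 scale. Rpl13a, a ribosomal protein gene, stood at 525, 349 and 346 TPM, with a largest difference of 0.058. Its reads can be shared with processed pseudogene copies, so its value is uncertain. Sqstm1, the gene of the autophagy receptor p62, stood at 508, 374 and 339 TPM, with a largest difference of 0.11. Likeness was measured over 3 libraries of 1 condition, so it compares levels and not responses.

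The A20 partners Tax1bp1, Tnip3 and Tnip1 formed a second tier. Tax1bp1, whose product links A20 to its substrates and also acts as an autophagy receptor, had 61.4, 36.4 and 45.5 TPM in replicates 1, 2 and 3. Tnip3, the gene of ABIN-3, had 71.8, 31.1 and 36.3 TPM, and Tnip1, the gene of ABIN-1, had 59.9, 38.0 and 34.5 TPM. Tax1bp1 lies on chromosome 6 at 52713729 to 52766780, Tnip3 on the same chromosome at 65525313 to 65634040, and Tnip1 on chromosome 11 at 54910785 to 54962917 of GRCm38. The 3 genes overlapped in level across the libraries, and a different one of them led in each. On the log2(TPM + 0.1) scale, Tax1bp1, Tnip3 and Tnip1 lay above the median gene. Their levels over it were 2.70 ± 0.06, 2.59 ± 0.12 and 2.57 ± 0.09 (moderated SE, n = 3) in that order. Each was called above the 2-fold band, with limma treat adjusted p-values of 8.7e-07, 2.4e-05 and 7.9e-06 in the same gene order.

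The ligases, the deubiquitinases Otulin and Cyld, and ABIN-2 were nearer to the median gene. Otulin had 20.1, 12.7 and 14.7 TPM, a level 1.12 ± 0.05 (moderated SE, n = 3) above the median gene on the log2(TPM + 0.1) scale. It was not called above the band (limma treat adjusted p = 0.071). Its reads may be uncertain, since 52275 bases of the gene's span overlap Ank on the opposite strand (6.85 TPM on average). No source used here says if reads were counted by strand. Only Otulin-202, at 0.02 TPM on average, reaches the far end of that span, at position 27542635. Otulin-201, with 98.4% of the gene's TPM, ends at 27605919. How much of the overlap lies within Otulin-201 was not determined. Rnf11, a RING finger protein gene, had 16.5, 11.1 and 11.4 TPM. Itch, a HECT ligase gene of the NEDD4 family, had 15.9, 8.95 and 10.8 TPM. Over the median gene on the log2(TPM + 0.1) scale, these levels were 0.84 ± 0.06 for Rnf11 and 0.69 ± 0.06 for Itch (moderated SE, n = 3). Both lay inside the band.

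Cyld, whose product belongs to the USP family and cleaves linear and lysine-linked signalling chains, had 9.55, 5.64 and 6.88 TPM. Those values were almost those of the median gene, with log2(TPM + 0.1) differences of 0.07, -0.03 and 0.004 by replicate number. Tnip2, the gene of ABIN-2, was lowest in every library, with 6.30, 4.25 and 5.30 TPM. Its difference from the median gene was -0.44 ± 0.06 (moderated SE, n = 3). ABIN-2 is also known as a partner of the kinase TPL2. Neither gene was called. Of these 5 genes, Otulin lies on chromosome 15 at 27542635 to 27630693, Rnf11 on chromosome 4 at 109451098 to 109484728 and Itch on chromosome 2 at 155133509 to 155226855. Cyld lies on chromosome 8 at 88697028 to 88751945 and Tnip2 on chromosome 5 at 34496087 to 34513991 of GRCm38.

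**Figure D1:**
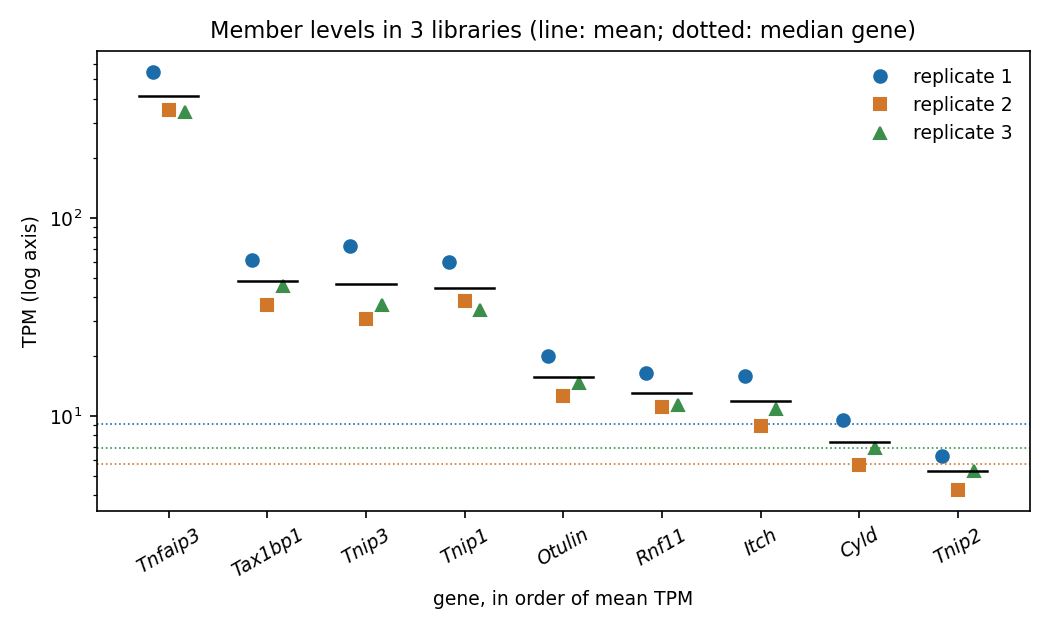
Levels of the 9 members in TPM on a log axis, with 1 symbol per library, a line at the mean of 3 and a dotted line at the median gene of each library in the colour of its symbol. Tnfaip3 lies at 343 TPM or more in every library, the next 3 genes between 31.1 and 71.8 TPM, and Cyld at about the median gene.

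Thus the test called 4 of the 9 members above the median gene, 0 below it and left 5 uncalled. Of all 9123 tested genes 2403, or 26.3%, were called above and 2236, or 24.5%, below. With 9 genes, this count is a description of the group and not a test of it. The median member lay 1.12 above the median gene on the log2(TPM + 0.1) scale, and the median of all tested genes was at -0.005. Rescaling the TPM of nuclear-encoded protein-coding genes to a common total let more low genes pass 1 TPM, which lowers the median gene. The level of every member then rose, Tnfaip3 to 6.17 and Tnip2 to -0.097. Otulin (1.47, limma treat adjusted p = 0.00016) and Rnf11 (1.19, limma treat adjusted p = 0.022) were called above too. Of all genes tested in that setting, 3012 were above and 3070 below. At a minimum mean of 5 TPM, which raises the median gene, Tnip2 was called below (-1.36, limma treat adjusted p = 0.0037).

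In the order of mean TPM, from Tnfaip3 through Tax1bp1, Tnip3, Tnip1, Otulin, Rnf11, Itch and Cyld to Tnip2, 6 of the 8 neighbouring pairs had the same order in every library. The exceptions were Tax1bp1 with Tnip3 and Tnip3 with Tnip1. The within-library difference of Rnf11 minus Itch was 0.15 ± 0.15 (SD, n = 3) on the log2(TPM + 0.1) scale, no larger than its spread. The steps that exceeded their spread were Tnfaip3 minus Tax1bp1 (3.11 ± 0.18), Tnip1 minus Otulin (1.46 ± 0.20), Otulin minus Rnf11 (0.28 ± 0.09), Itch minus Cyld (0.68 ± 0.04) and Cyld minus Tnip2 (0.45 ± 0.12; SD, n = 3 each). An exact sign-flip permutation test over 3 libraries cannot give a 2-sided p under 0.25, which each of these 5 steps reached.

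Members with related roles differed in level as well. Among the ABIN genes, Tnip3 exceeded Tnip2 by 11.4-, 7.31- and 6.86-fold in replicates 1, 2 and 3 (ratios of TPM). Counting only coding transcripts, Tnip3 had 42.3, 21.2 and 24.0 TPM and Tnip2 had 5.95, 4.03 and 5.03 TPM, a smaller ratio in every library. Tnip1 exceeded Tnip2 by 9.51-, 8.93- and 6.50-fold. Between the deubiquitinases, Tnfaip3 exceeded Otulin by 27.3-, 27.6- and 23.3-fold and Cyld by 57.2-, 62.1- and 49.8-fold. Otulin, the enzyme for linear chains, exceeded Cyld by 2.10-, 2.25- and 2.14-fold. Within the A20 complex, Tnfaip3 exceeded Rnf11 by 33.2-, 31.4- and 30.1-fold and Itch by 34.4-, 39.1- and 31.6-fold.

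By TPM all 9 members were highest in replicate 1, and 7 were lowest in replicate 2, as was the median gene. Counts scaled by TMM (CPM, counts relative to the scaled library size), which remove that shift, varied far less between libraries. Otulin had 35.0, 34.9 and 33.7 CPM, a coefficient of variation of 2.12%, close to its counting error of 2.06%. Tax1bp1 had 256, 241 and 253 CPM and Cyld 68.2, 64.2 and 65.1 CPM, with coefficients of variation of 3.10 and 3.13%. Tnfaip3, Tnip1 and Tnip3 spread further. Tnfaip3 had 3066, 3124 and 2564 CPM (10.6%), and Tnip1 had 189, 188 and 144 CPM (14.9%), both lowest in replicate 3. Tnip3 had 183, 129 and 135 CPM (19.8%), the highest spread among the members, and was highest in replicate 1.

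The biological coefficient of variation, estimated per gene by edgeR with shrinkage towards genes of like abundance, lay between 0.082 for Otulin and 0.14 for Tnip3. It was under the trend at that abundance for 7 members and above it for Tnip3 (0.14 against a trend of 0.11) and Tnip1 (0.13 against 0.11). The median was 0.094 over the members and 0.12 over all 13026 genes, and no test was made of this difference.

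**Figure D2:**
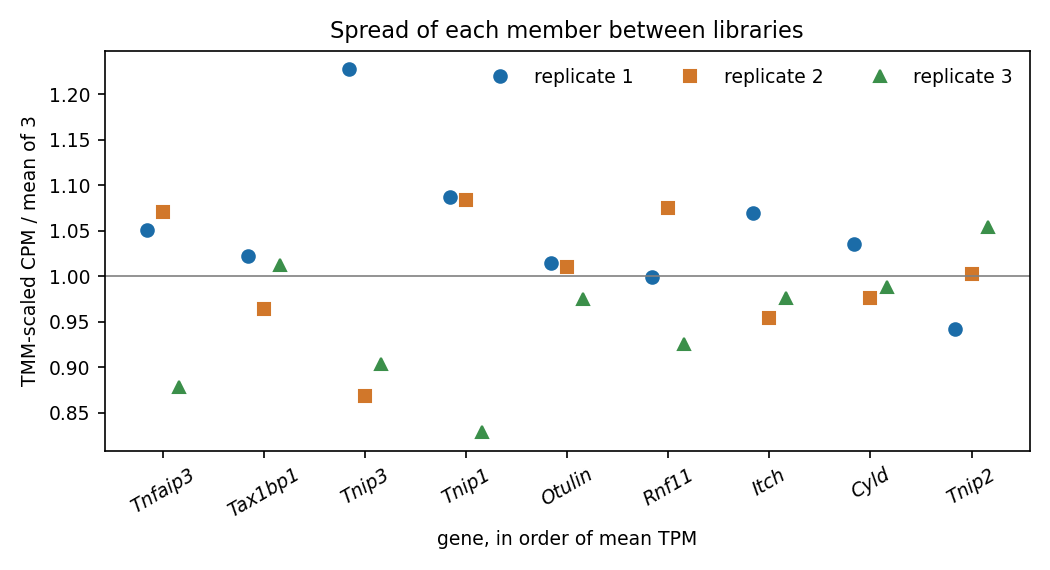
TMM-scaled CPM of each member divided by its mean of 3 libraries, with 1 symbol per library. Otulin, Tax1bp1 and Cyld lie close to 1, while Tnip3 is high in replicate 1 and both Tnfaip3 and Tnip1 are low in replicate 3.

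Most of the Tnfaip3 message was a single annotated transcript. Tnfaip3-201, which encodes the 775-residue A20, took 92.6, 96.6 and 94.7% of the gene's TPM in replicates 1, 2 and 3. The leading transcript likewise held 98.4 ± 1.04% for Tax1bp1-201, 98.4 ± 0.54% for Otulin-201, 93.4 ± 0.32% for Tnip2-202 and 88.8 ± 1.07% for Itch-201 (SD, n = 3). In these 5 genes every other transcript averaged under 8%.

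Rnf11 and Cyld were divided between transcripts with the same coding length. Rnf11-202 took 66.4, 65.2 and 65.2% of the gene's TPM and Rnf11-201 the remaining 33.6, 34.8 and 34.8%. Both encode 154 residues, and their 3' UTRs are 1352 bases in Rnf11-202 and 3153 bases in Rnf11-201. By expected counts, which favour the longer transcript, the shares were 46.3% for Rnf11-202 and 53.7% for Rnf11-201. Cyld-206 took 44.1, 44.4 and 50.5% and Cyld-203 took 24.0, 26.6 and 22.7%, each encoding 952 residues, with 3' UTRs of 1442 and 4932 bases. The shorter coding form Cyld-204, with 770 residues, took 13.1, 14.4 and 14.4%. The other 8 Cyld transcripts averaged at most 5.91% each. Which transcript came second depended on the measure. Cyld-203 held 36.2% of the expected counts, next to 37.8% for Cyld-206 and ahead of it in replicate 2 (39.0 and 35.9%), but 13.1, 10.4 and 6.45% of kallisto's TPM in replicates 1, 2 and 3. There Cyld-210, also of 952 residues and named after its values were seen, took 18.2, 22.7 and 13.2%, more than Cyld-203 in every library.

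The 2 leading Tnip1 transcripts differ in coding length. Tnip1-205, with 594 residues, took 54.4, 49.4 and 52.5% of the gene's TPM, and Tnip1-202, with 646 residues, took 25.8, 27.1 and 25.1%. The order was the same in every library. The other 10 transcripts averaged at most 7.91% each, the highest being Tnip1-208, named after its value was seen, which had 13.9% of kallisto's TPM.

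**Figure D3:**
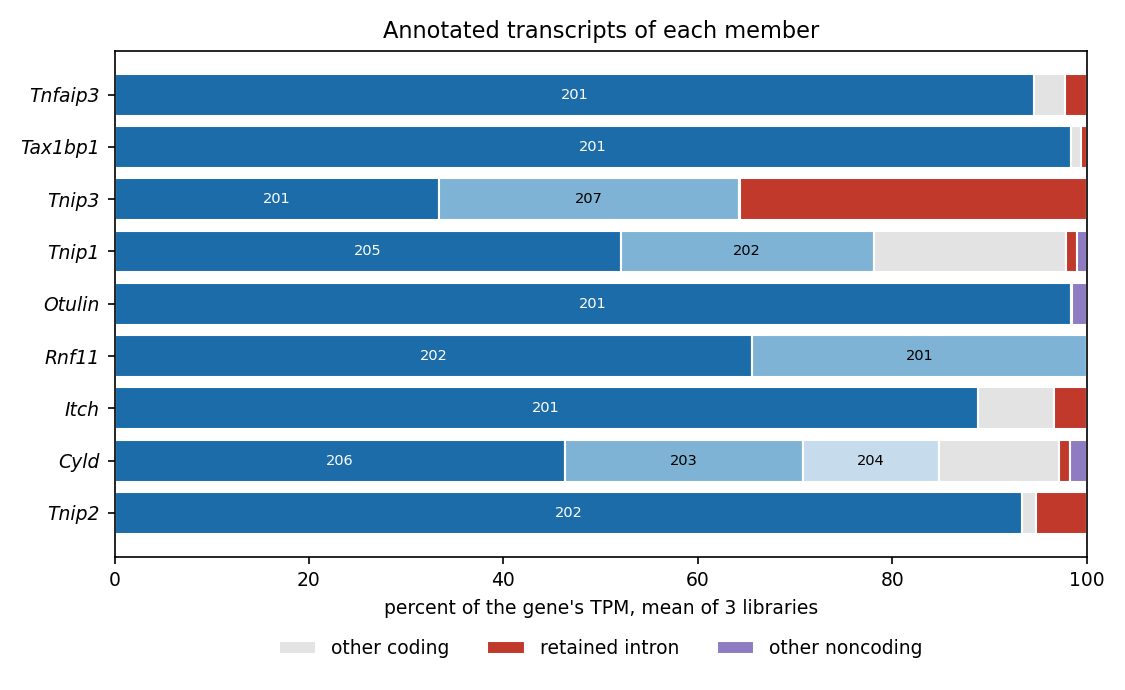
Percent of each member's TPM in its annotated transcripts, mean of 3 libraries. Blue shades are protein-coding transcripts of at least 10%, named by number, and grey, red and violet pool the other coding, retained-intron and other noncoding transcripts. Tnip3 has the widest red bar, 35.6%.

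Tnip3 was the member least dominated by 1 transcript. Tnip3-201, which starts at chromosome 6 position 65590398, inside the window printed above, and encodes 208 residues, took 28.2, 33.9 and 38.2% of the TPM in replicates 1, 2 and 3. Tnip3-207, which starts upstream at position 65525385 and encodes 279 residues, took 30.7, 34.2 and 27.6%. The retained-intron transcript Tnip3-205, 842 bases long, took 30.8, 28.8 and 29.7%. A different one of the 3 led in each library, and kallisto's values put Tnip3-207 first in all 3. The split depended strongly on the measure, since Tnip3-201 held 61.1% of the gene's expected counts, 33.4% of its TPM and 18.0% of kallisto's TPM.

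All annotated retained-intron transcripts together held 41.2, 31.8 and 33.9% of Tnip3's TPM in replicates 1, 2 and 3 (35.6 ± 4.93%, SD, n = 3). This was more than in 96.6% of the 5769 genes with such a transcript. By expected counts the share was 17.5 ± 5.50%, more than in 95.6% of those genes. In the other 6 members with such transcripts the mean share ran from 0.586% in Tax1bp1 to 5.33% in Tnip2, with 2.19% in Tnfaip3. By kallisto's TPM the share was 39.2% in Tnip3, 11.3% in Tnip2 and 7.18% in Itch, where the RSEM-style TPM gave 3.34%, and by expected counts it was 1.27% in Tnip2 and 0.719% in Itch. Counting only coding transcripts, Tnip3 stood at 42.3, 21.2 and 24.0 TPM and Tnip1 at 57.6, 37.5 and 34.1 TPM, so that Tnip3 was then below Tnip1 in every library.

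The retained-intron share was highest in replicate 1 for all 7 members that have such a transcript, against 59.3% of all genes with one, and lowest in replicate 2 for 5 of them, against 53.6%. The median share over those 5769 genes was 1.58, 0.731 and 1.14% in replicates 1, 2 and 3. Relative to the median gene of the library, the nuclear RNAs Malat1 and Neat1 were also lowest in replicate 2, but highest in replicate 3. Their levels were 45.9-, 21.2- and 47.0-fold for Malat1 and 4.28-, 2.15- and 5.24-fold for Neat1 in replicates 1, 2 and 3. Xist, also a nuclear RNA, had 8.81, 0.76 and 2.85 TPM. By TPM and relative to the median gene, Xist was highest in replicate 1 and lowest in replicate 2. As a share of annotated counts, Malat1 was highest in replicate 3 and Neat1 in replicate 1. The order of replicates 1 and 3 thus depended on the RNA and the scale. The part of nuclear RNA in the retained-intron shares was not tested.

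**Figure D4:**
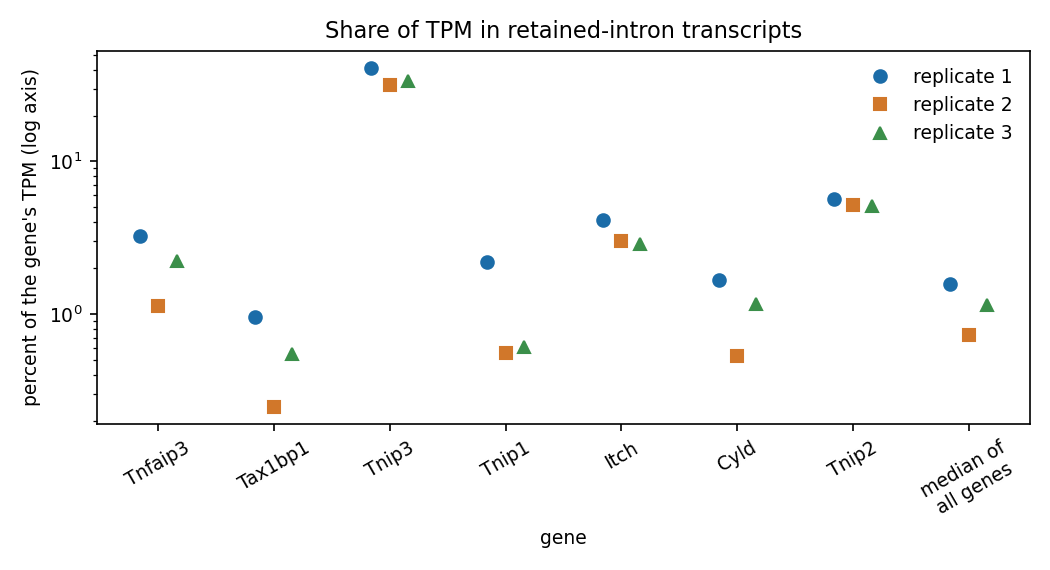
Percent of each gene's TPM in annotated retained-intron transcripts, on a log axis, with 1 symbol per library, for the 7 members that have such transcripts, and the median over 5769 genes at the right. Replicate 1 is highest for each member, and Tnip3 lies between 31.8 and 41.2%.

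The pentamer AUUUA, the core of AU-rich elements that decay factors such as tristetraprolin bind, was counted in the 3' UTR of each member's leading coding transcript. Tnfaip3-201 had 5 in 1821 bases, and a stretch from base 948 to 977 after the stop codon held 2 of them, in capitals here.
Tnfaip3 3' UTR, chromosome 10: uuuAUUUAuuaugaacuuccaaguuAUUUA

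Tax1bp1 had 4, Itch 7, Cyld 6, Rnf11 and Tnip3 3 each, Tnip2 had 1, and Tnip1 and Otulin had 0. Over 8536 tested genes with a 3' UTR of at least 100 bases the median was 1, and 31.1% had 0. Per kilobase, Tax1bp1 had 5.67, Cyld 4.16, Itch 2.93, Tnfaip3 2.75, Rnf11 2.22 and Tnip2 1.67, against a median of 1.37, and Tnip3, at 1.02, lay under that median with Tnip1 and Otulin. These counts hold for the chosen transcript only, which for Tnip3 was Tnip3-201 with 2932 bases of 3' UTR. Tnip3-207, Rnf11-201 and Cyld-203, with 3' UTRs of 683, 3153 and 4932 bases, were not counted. No decay was measured.

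Around the members, 6 lists held 53 other genes of the pathway, of which 46 reached 1 TPM. Of these 46, 14 were above the median gene, 3 below and 29 not called, against 26.3% of all tested genes above and 24.5% below. The median gene of the lists was at 7.79 TPM, and at 15.8 TPM among the members.

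E2 enzymes carry activated ubiquitin to the ligases. Of 7 E2 genes of NF-kB signalling 5 were above the median gene and 0 below, led by Ube2d3 at 111 ± 23.7 TPM and Ube2l3, the E2 used by LUBAC, at 63.5 ± 15.8 TPM (SD, n = 3). The other 3 above it, named after their values were seen, were Ube2d2a, Ube2v1 and Ube2n, the last of which makes lysine-linked signalling chains. Ube2d1 was lowest at 7.15 ± 1.38 TPM, and it and Ube2v2, also named after its value was seen, lay at the median gene (-0.01 and 0.05 on the log2(TPM + 0.1) scale). In the list of LUBAC and linear ubiquitin 2 of 5 tested genes were above. They were Otulinl, a relative of Otulin, at 26.9 ± 9.56 TPM, and Sharpin, a LUBAC subunit, at 16.4 ± 3.15 TPM, while Spata2l was at 0.227 ± 0.055 TPM. Sharpin was near the threshold (limma treat adjusted p = 0.044) and was not called in 5 of 8 alternatives, among them those without replicate 1 (limma treat adjusted p = 0.14) and without replicate 2 (limma treat adjusted p = 0.12). Otulinl was not called at a minimum mean of 5 TPM, where the count was 0.

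Ligases and substrates at the receptors were closer to the median gene. Of 11 genes 1 was above, Birc3, a ligase of the IAP family, at 35.4 ± 13.4 TPM, and 1 was below, the adaptor gene Traf2, at 3.09 ± 1.08 TPM. The call of Traf2 (limma treat adjusted p = 0.034) was lost in 5 of the 7 alternatives that tested it, among them those without replicate 2 (limma treat adjusted p = 0.13) and without replicate 3 (limma treat adjusted p = 0.17). Peli1, a ligase gene, averaged 17.6 ± 7.80 TPM and was not called. It was called above without replicate 3 (limma treat adjusted p = 0.00099). Malt1, named after its values were seen, was called above without replicate 2 (limma treat adjusted p = 0.039). With rescaled TPM, where the median gene is lower, 4 of the 11 genes were above. Besides Birc3 these were Ripk1, Malt1 and Ripk2 (limma treat adjusted p = 0.00053, 0.011 and 0.046). Ripk1 and Ripk2 were named after their values were seen. Among 7 ubiquitin readers 3 were above, Sqstm1 at 407 ± 89.0 TPM, the TAK1 adaptor gene Tab2 at 26.3 ± 6.88 TPM and the autophagy receptor gene Nbr1, named after its value was seen. The Tab2 relative Tab3 was below, at 2.59 ± 0.650 TPM, though not with rescaled TPM (limma treat adjusted p = 0.10) and not with no minimum level. Nbr1 was not called with kallisto's TPM (limma treat adjusted p = 0.17), and neither Tab2 nor Nbr1 at a minimum mean of 5 TPM. The reader gene Optn, named after its values were seen, was above with rescaled TPM (limma treat adjusted p = 0.036).

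Relatives of the members themselves were mixed. Of 7 tested genes of the NEDD4 family and its adaptors 3 were above. They were Wwp1 at 84.1 ± 17.2 TPM, Ndfip1, whose product activates ITCH, at 57.8 ± 17.7 TPM, and Nedd4l, named after its value was seen. Itch itself averaged 11.9 ± 3.59 TPM. Hecw1 was at 0 TPM in every library, and Hecw2 and Nedd4, also named after their values were seen, averaged under 1 TPM. Of the 9 tested deubiquitinases of the OTU class other than A20 and OTULIN 0 were above and 1 was below, Otud3, named after its value was seen. Otud3 was not called with no minimum level. Otud1, also named after its values were seen, was called below too without replicate 2 (limma treat adjusted p = 0.021) and with kallisto's TPM (limma treat adjusted p = 0.013). The highest were Otub1 at 14.8 ± 3.49 TPM and Otud5 at 12.1 ± 4.28 TPM. With rescaled TPM 1 gene of this list was above, Otub1 (limma treat adjusted p = 0.0011), and 2 were below. These were Otud3 and a gene that was under 1 TPM before rescaling, not Otud1. Otud7a was at 0 TPM, and Otub2 and Yod1, named after their values were seen, averaged under 1 TPM. In this class Tnfaip3, at 413 ± 116 TPM, was higher than every other gene in every library.

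**Figure D5:**
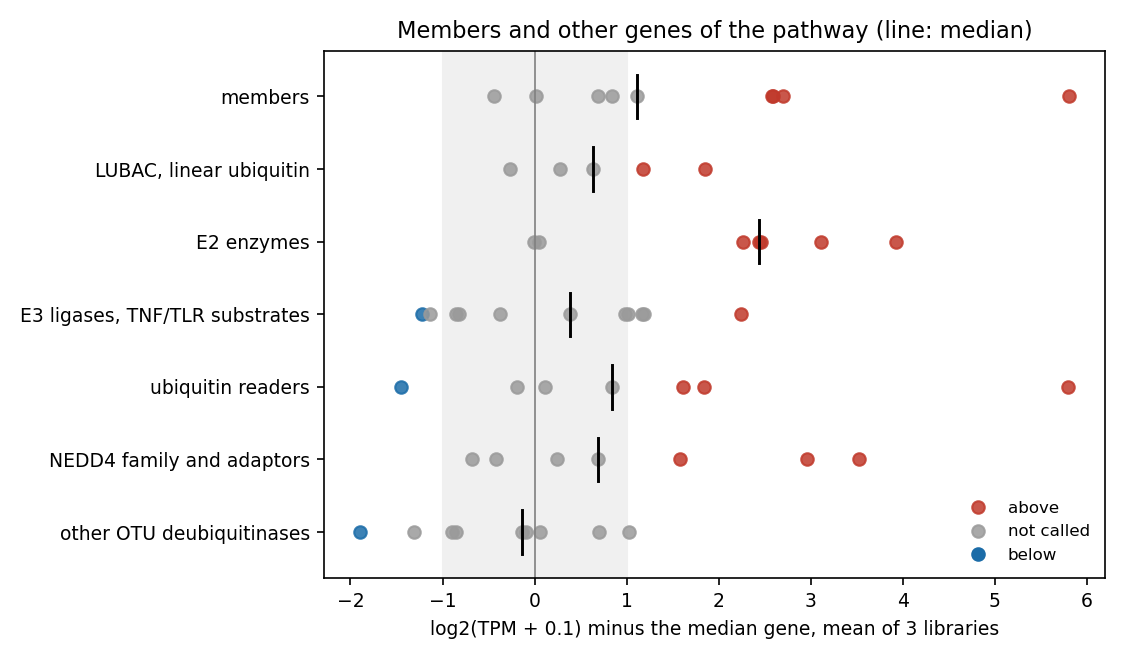
Level relative to the median gene on the log2(TPM + 0.1) scale, mean of 3 libraries, for the 9 members and for the tested genes of 6 pathway lists. Each point is a gene, coloured by its call, the black line is the median, and the shaded band is 2-fold either side of the median gene. Tnfaip3 at 5.81 and Sqstm1 at 5.80 are the rightmost points.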

How the data were processed

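Expected counts and TPM per gene and per transcript were read from the deposited tables, whose columns are named as RSEM writes them. Per the file headers, the transcript tables give each transcript's percent of its gene's TPM, and the gene tables give 95% credibility bounds of TPM, a signal that the text does not use. A second deposited transcript table gives estimated counts and TPM in columns named as kallisto writes them, called kallisto's here. Genome and annotation were mm10 and GENCODE M21, according to description files deposited alongside. The versions of the aligner and of the quantifiers were not given in the sources used.

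TPM is a share of all RNA in a library, so a change in other RNAs moves it. The level test subtracted from log2(TPM + 0.1) the library's median over protein-coding genes of at least 1 TPM and fitted an intercept alone with limma 3.58.1 in R 4.3.3, using treat at a band of 1 on the log2 scale and Benjamini-Hochberg adjustment over 9123 genes at 0.05. Expected counts were rounded for edgeR 4.0.16 (TMM, filterByExpr). Both steps were tested on simulated data. Rows that are not annotated genes held 0.260, 0.0933 and 0.0577% of the counts of replicates 1, 2 and 3 and were left out. Motifs were searched in Python 3.11.15. Each library pair differed beyond counting noise (chi-square per degree of freedom of 111 or more). In the labels each replicate has its own biosample, and all share a donor entry that stands for the strain. The p-values therefore reflect how far these libraries spread, moderated by the trend over all tested genes, and that spread may be technical.

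The members and lists were chosen with earlier results of these data known. All members are named, together with each transcript of at least 10% of its gene's TPM, and of each list the 2 genes of highest and the 1 gene of lowest mean TPM. Alternatives were kallisto's TPM, rescaled TPM, posterior mean TPM, a pseudocount of 1, other minimum levels, DESeq2 1.42.0 size factors for the counts, and leaving out each replicate. Alternatives added after seeing the data were transcript shares of expected counts, the retained-intron share by expected counts and by kallisto's TPM, and levels of coding transcripts only.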

Additional observations from a re-analysis of the deposited data

How the results depend on the processing

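Tnfaip3, Tax1bp1, Tnip3 and Tnip1 were called above the median gene in all 8 alternatives of the level test. The count of members above was 8 with no minimum level, where the median gene is lower and only Tnip2, at 1.13, was not called, and 1 member was below at a minimum mean of 5 TPM. With no minimum level 36 list genes were above and 5 below, and of all genes 5403 were above and 5929 below. At the minimum of 5 TPM, 9 list genes were above, and 1254 of all genes were above and 491 below. Other minimum levels and rescaling change which genes are tested. Shares of all tested genes were not computed there, so the member counts have no background share in those settings. With kallisto's TPM 1427 of all genes were below, and the cause was not tested. Leaving out a replicate gave 4 members above each time. Members near the median gene changed sign without a call, Cyld to -0.26 with kallisto's TPM, -0.91 at the minimum of 5 TPM and between -0.057 and 0.072 on leaving out a replicate (negative without replicate 1), and Itch to -0.23 and Rnf11 to -0.087 at that minimum. Tax1bp1 minus Tnip3 was -0.25 with kallisto's TPM, and Tnip3 minus Tnip1 lay between -0.11 and 0.17 on leaving out a replicate (negative without replicate 1 or 3). All BCV values stayed within 1.5-fold. Transcript shares moved beyond their SD in 28 of 90 comparisons, each with kallisto's TPM, posterior mean TPM or counts and none by leaving out a replicate. No paired analysis was possible because there was 1 group. Depth limited little here, the least covered member, Tnip2, having 968 to 1163 counts.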

Other observations

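The ratio of Tnfaip3 to Tnip1, chosen after the values were seen, varied little between libraries although both genes spread more than most members. Tnfaip3 exceeded Tnip1 by 9.13-, 9.23- and 9.95-fold in replicates 1, 2 and 3, a within-library difference of 3.23 ± 0.07 (SD, n = 3) on the log2(TPM + 0.1) scale. The difference from Rnf11 was as steady, at 4.97 ± 0.07, while those from Tnip3 and Tax1bp1 were 3.22 ± 0.28 and 3.11 ± 0.18. With 3 libraries of 1 condition, no relation between these genes was tested.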
